A study of Drosophila melanogaster with 4 samples.

Results

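The regions described here are the stretches of the 4 large autosomal arms where called Hairy peaks were packed most tightly. Peaks on 2L, 2R, 3L and 3R were sorted by start and joined when at most 1000 bp separated the end of one from the start of the next, and a joined region was kept if it held 10 or more peaks. This gave 90 regions with 1214 peaks, out of 10565 autosomal peaks and 13577 peaks in the whole list. The regions were chosen from the positions of the called peaks. Position, width and score all come from the same ChIP signal, so every value below is a description and no test was made.

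The assay was ChIP-seq, in which crosslinked chromatin bound by a protein is pulled down with an antibody and its DNA is sequenced. The cells were Kc167, an established female Drosophila melanogaster line of embryonic origin (late embryonic stage, genotype se/e), with no treatment named in the labels. There were 3 ChIP libraries, made with KW3-h-D1 (a rabbit polyclonal antiserum raised against part of Hairy), and 1 input library, which is chromatin of the same line without pull-down. The data are 1 list of peaks for all libraries, on FlyBase release 5, with no value per library, so no error between replicates can be given and the read depth is unknown.

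Hairy is a basic helix-loop-helix repressor of the Hairy/E(spl) family. It is known as a primary pair-rule protein that patterns the embryo into segments, and it represses transcription by recruiting corepressors, among them Groucho and CtBP. In a ChIP-seq experiment a peak marks a place where more fragments were recovered than the background allows, through direct contact of the protein with DNA or through other proteins crosslinked to it. A run of neighbouring peaks is therefore a stretch of chromatin with many separate calls of recovered DNA, and does not by itself count binding sites. No annotation or sequence of release 5 was used, so the regions are named by coordinates and not by genes.

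Dense regions took up little of the arms. Together they spanned 1557 kb, or 1.62% of the 96.3 Mb between position 1 and the last peak of each of the 4 arms. They held 11.5% of the autosomal peaks and 15.4% of all bases under autosomal peaks. Arm 3R had 32 regions with 447 peaks, 2L had 21 with 282, 2R had 21 with 264 and 3L had 16 with 221. Set against arm length, 3R had 11.5 regions per 10 Mb, 2R 10.1, 2L 9.13 and 3L 6.52. The share of an arm's peaks that lay in dense regions was highest on 2L (13.1%) and 3R (12.8%), and lower on 3L (10.8%) and 2R (9.12%). Arm 2R thus came next to 3R in regions per 10 Mb, but had the smallest part of its peaks in them.

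Most dense regions were short runs and a few were long. Of the 90 regions, 47 held 10 to 12 peaks, 32 held 13 to 19 and 11 held 20 or more, the last with 248 peaks between them. The median region had 12 peaks over 15056.5 bp (quartiles 12621 and 19738 bp), and lengths ran from 7500 to 59881 bp. The limit of 10 peaks was not a natural break in the data. Just inside it, the 22 regions with 10 peaks had a median length of 11586 bp, a median peak score of 16.44 and 73.1% of their length under peaks. Just outside it, the 47 regions with 9 peaks had a median length of 9208 bp, a median peak score of 16.68 and 72.0% of their length under peaks. The dense regions are thus the upper end of a graded range of peak clustering.

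Peaks filled most of a dense region. In the median region 74.7% of the length lay under called peaks (quartiles 68.9% and 81.1%), and the gaps between neighbours were short. The 1124 gaps inside dense regions had a median of 250 bp (quartiles 128 and 491.5 bp). In regions of 2 to 9 peaks the median of 5162 gaps was 283 bp. Gaps of at most 100 bp made up 18.9% of gaps in dense regions and 18.7% of those in regions of 2 to 9 peaks. No gap can exceed 1000 bp by the joining rule, and in both sets the gaps ran from 50 to 998 bp. Within these shared bounds gap length was similar in short and long runs, while peaks in the long runs were wider.

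The fullest region lay on 3L from 3216935 to 3232428, where 11 peaks covered 89.6% of 15494 bp. Close to it were the 3L region from 626753 to 656222 (87.9%, 19 peaks), the 2L region from 19565970 to 19587749 (87.8%, 13 peaks) and the 2R region from 8803421 to 8824175 (87.0%, 12 peaks). At the other end, the 3L region from 18859974 to 18867473 held 10 narrow peaks (median width 307 bp) over 47.7% of 7500 bp. The 3L region from 3168363 to 3180190 was covered for 53.6%, the 3R region from 24937844 to 24953167 for 58.0% and the 3L region from 19907991 to 19922365 for 59.6%. Arm 3L thus held the extremes at both ends of this measure. Over the 90 regions, longer regions had a higher covered share (Spearman rho = 0.60) and a higher median score (rho = 0.60). These correlations describe regions of 1 list whose length, cover and score come from the same signal.

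**Figure D1:**
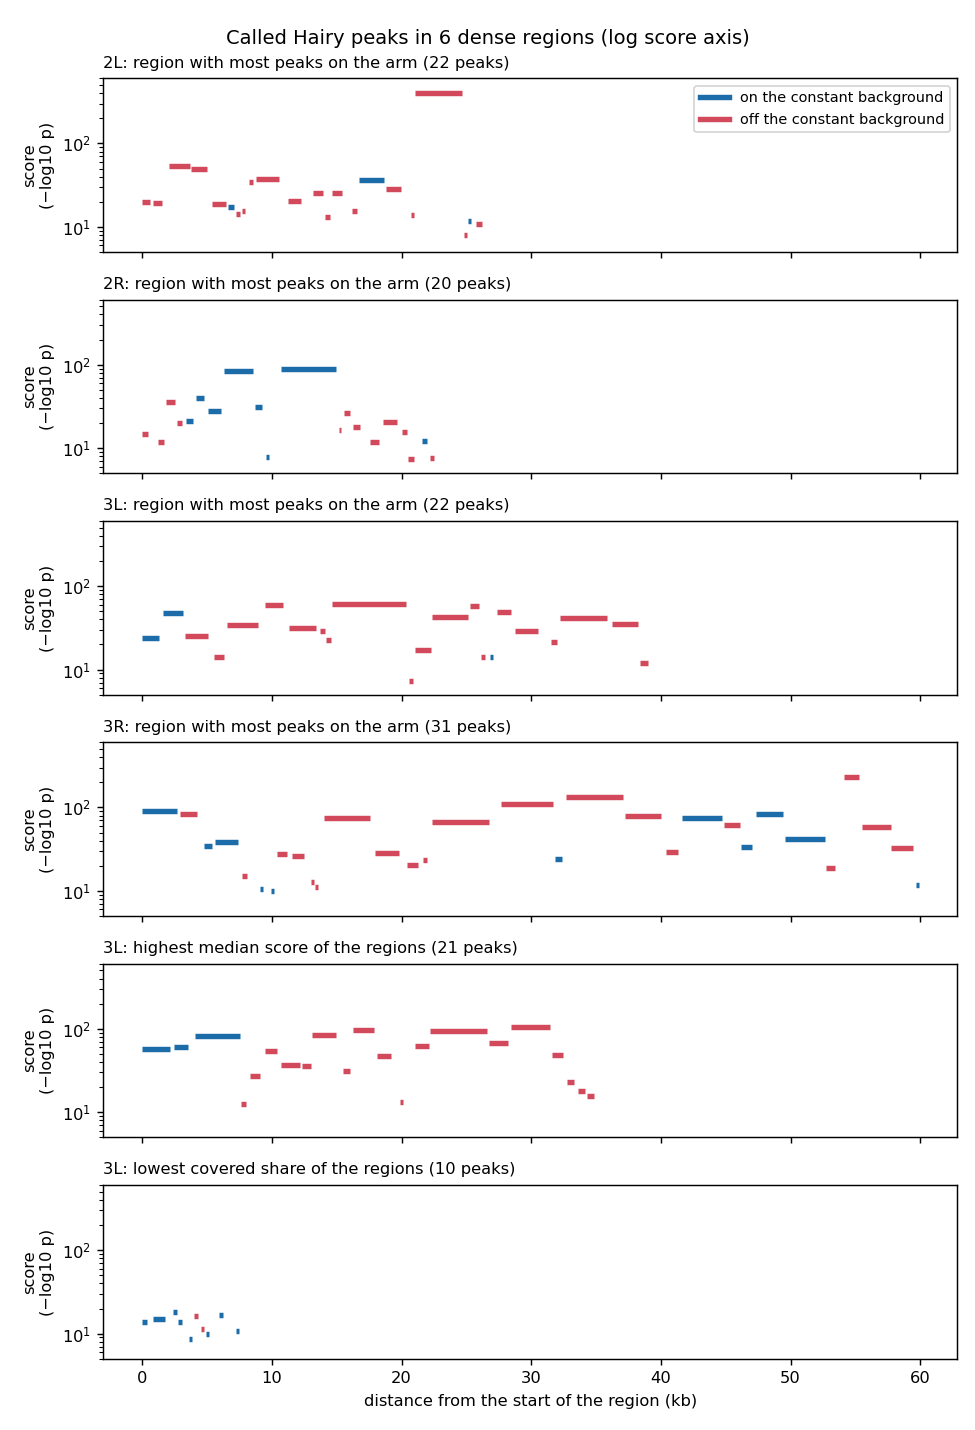
Each panel shows 1 dense region, with every called peak drawn as a bar from its start to its end (distance from the start of the region in kb) at the height of its score (−log10 p, log axis), blue if its score lay on the constant background and red if it did not. The panels are the region with most peaks on each arm, the 3L region with the highest median score (49.10) and the 3L region with the lowest covered share (47.7%); the 2L panel has 1 peak at 405.17 among peaks of at most 53.96, while the 3R panel has tall and low peaks side by side along 59.9 kb.

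The list gives 1 score per peak, read here as −log10 of the authors' p-value. Most scores match the values that a Poisson distribution over a constant background of 157.836 fragments gives for whole numbers of fragments, and from this match a fold over background was recovered. The median peak in a dense region had a score of 18.615 (quartiles 13.17 and 28.54), or 1.79-fold (quartiles 1.64 and 2.01). The autosomal peaks in smaller regions had a median score of 15.01, or 1.69-fold. Scores in dense regions ran from 6.86 to 405.17. Of the 1214 peaks, 316 (26.0%, exact 95% binomial interval 23.6 to 28.6%) reached 2-fold, against 19.0% of all 13577 peaks in the list and 17.4% of the 9351 autosomal peaks in smaller regions. Intervals on shares and folds cover counting error only, and peaks of 1 region are not independent. For scores that did not match, the recovered fold is a lower limit over the constant background. Counts at a given fold, here and below, are counts by recovered fold.

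Across 4 classes of region size, median score and median width were higher in each larger class. This did not hold at each single step. Regions of 9 peaks had medians of 16.68 and 555 bp, and regions of 10 peaks 16.44 and 494.5 bp. The shares at 2-fold or more in these regions were 18.7% and 16.8%. Single autosomal peaks had a median score of 14.09, those in regions of 2 to 4 peaks 14.57, in regions of 5 to 9 peaks 16.205 and in dense regions 18.615. Median widths in the same order were 415, 463, 525 and 609 bp. The share of peaks at 3-fold or more did not follow this order. It was 1.89% in dense regions (23 peaks), 1.75% among single peaks (37), 0.64% in regions of 2 to 4 (27) and 0.79% in regions of 5 to 9 (24), against 1.19% in the whole list. At 4-fold or more there were 2 peaks in dense regions and 11 single peaks, 0.165% and 0.519% of each set, against 0.287% of the whole list. Dense regions held 11.5% of all autosomal peaks. Of the 50 autosomal peaks with the highest scores they held 7 (14%), of the first 100 they held 20 (20%) and of the first 1000 they held 178 (17.8%). They held 1 of the 20 highest scores of the whole list, of which they make up 8.94%.

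Wide peaks were common in dense regions. Peaks of 2000 bp or more numbered 142 (11.7% of the peaks in dense regions), against 467 (4.99%) of the other autosomal peaks. Peaks of 4000 bp or more numbered 28 (2.31%) against 43 (0.460%), so that 39.4% of all such autosomal peaks lay in dense regions. The widest peak of the list, on 2L from 517930 to 527834, spanned 9905 bp with a score of 144.96. It lay in a 12-peak region whose median width was 436 bp. The next widest in autosomal dense regions were the last peak of the 3R region from 23077334 to 23119159 (7671 bp, score 49.18) and a 3L peak from 629512 to 636712 (7201 bp, score 103.50). Wide peaks close gaps and so favour joining, which is part of the rule. Across the 1214 peaks, width and score rose together (Spearman rho = 0.80); both are taken from the same called signal.

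**Figure D2:**
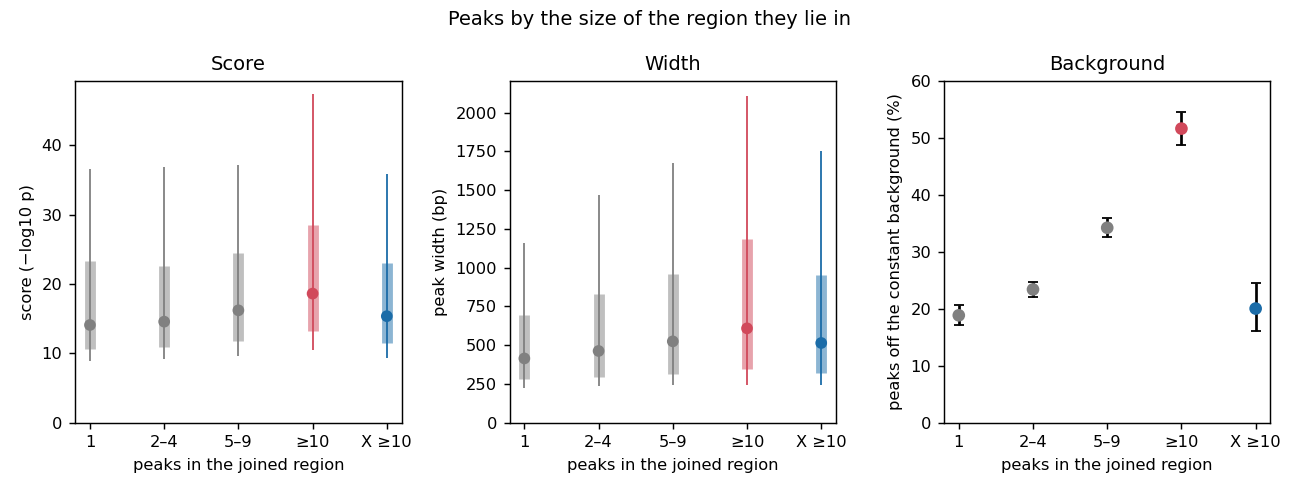
The panels give the score (−log10 p), the width (bp) and the percentage of peaks off the constant background for autosomal peaks in joined regions of 1, 2 to 4, 5 to 9 and at least 10 peaks and for X peaks in regions of at least 10. Points in the first panels are medians with bars for quartiles and thin lines for the 10th and 90th percentiles, and points in the last are shares with exact 95% binomial intervals; all 3 measures are highest in the autosomal dense regions (medians 18.615 and 609 bp, share 51.6%), while X regions of the same size stand at 15.36, 514.5 bp and 20.1%.

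The same direction was seen on each arm. In dense regions the median score was 19.935 on 2L, 17.655 on 2R, 17.38 on 3L and 18.68 on 3R, and for the other peaks of the same arms it was 16.025, 15.05, 14.78 and 14.775. The median width was 633.5, 593, 577 and 623 bp in dense regions and 470.5, 477, 442 and 481 bp elsewhere on the arms, in the same order. The share of peaks at 2-fold or more was 31.2% on 3L, 30.5% on 2L, 24.6% on 3R and 19.3% on 2R in dense regions. Outside them it was 16.2% on 3L, 20.2% on 2L, 15.8% on 3R and 18.3% on 2R. The contrast in the share at 2-fold or more was thus smallest on 2R.

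Within a region the peaks were uneven. The highest score of a region had a median of 54.92 over the 90 regions (quartiles 39.945 and 79.0, range 18.17 to 405.17), and it was 2.91 times the region's median score in the median region. Regions also differed in shape. In 22 of the 90 the highest score was at least 4 times the median, and in 16 it was under 2 times. In 14 regions the highest score was at least 2 times the next one. Of the variance of log2 score, 16.4% lay between regions, and the rest lay between peaks of the same region. Groups of few peaks differ to some degree however they are formed, and no baseline for this share was computed. Of 1124 pairs of neighbouring peaks, 356 (31.7%) differed by 2 times or more in score and 75 (6.67%) by 4 times or more. Tall and low peaks were thus neighbours in part of the pairs, but pairs of peaks farther apart were not compared. The correlation of log2 score between neighbours in the same region was 0.22 over the 1124 pairs, and 0.07 after the mean of each region was subtracted. Subtracting a mean taken over few peaks itself lowers the correlation, so the second value cannot be read as a lack of order.

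The most peaked region was that of 2L from 18685633 to 18711841. Its 22 peaks had a lowest score of 8.03, a median of 19.505 and a highest of 405.17. The highest belonged to a 3650 bp peak from 18706668 to 18710317 that reached at least 6.07-fold over the constant background. Its score did not match the values of that background, so the fold is a lower limit and no interval is given. The next score in the region was 53.96, and the peaks on either side of the tall one had scores of 13.97 and 8.03. The contrast was also strong in the 2L region from 508951 to 531427, where the 9905 bp peak stood 9.73 times above the median of 14.90. In the 3L region from 20383621 to 20399383 a 5780 bp peak with a score of 172.31 stood 8.99 times above the median of 19.16. This peak was also off the constant background, at 3.95-fold over it or more. In the 2R region from 18816664 to 18831151 a 6424 bp peak with a score of 107.96 stood 7.87 times above the median of 13.715. In these 4 regions the tallest peak was also the widest.

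Other regions were flat. In the 3L region from 3168363 to 3180190 the 13 scores ran from 9.44 over a median of 14.67 to 18.51, so that the tallest peak was 1.26 times the median. The 10 scores of the 3L region from 18859974 to 18867473 ran from 8.58 over 13.755 to 18.17. In the 3R region from 6139403 to 6160061 the 18 scores ran from 7.53 over 17.315 to 25.20, and in the 2L region from 12999429 to 13012858 the 15 scores ran from 9.46 over 16.78 to 26.11. None of the peaks in these 4 regions had a recovered fold of 2 or more. For peaks off the constant background that fold is a lower limit. Such peaks were 12 of 13, 2 of 10, 4 of 18 and 13 of 15 in the order named. By recovered fold, 8 regions had no peak at 2-fold, and 8 had more than 50% of their peaks at or above it.

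**Figure D3:**
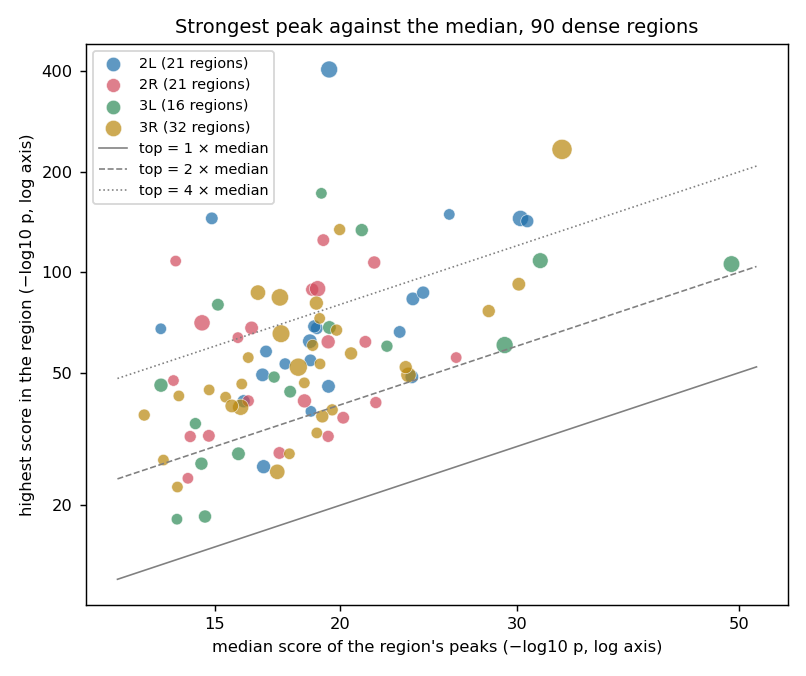
Each circle is 1 dense region, placed by the median score of its peaks (x axis) and by its highest score (y axis), both −log10 p on log axes, coloured by arm and sized by the number of peaks; grey lines mark a highest score of 1, 2 and 4 times the median. Medians span 12.76 to 49.10 and highest scores 18.17 to 405.17, with the 2L region of 22 peaks alone at the top and the 3L region of 21 peaks alone at the right.

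The region with the highest median score combined many strong peaks. It lay on 3L from 8668309 to 8703135, where 21 peaks covered 82.7% of 34.8 kb with a lowest score of 12.44, a median of 49.10 and a highest of 105.75. In it 15 of 21 peaks reached 2-fold. The highest peak, off the constant background, was at least 3.19-fold over it. The strong peaks of the region were spread along the whole stretch. The first 3 peaks from the left had scores of 56.65, 60.31 and 83.09, the 9th and 11th had 83.58 and 96.10, and the 15th and 17th had 93.30 and 105.75. The last 3 declined, at 23.00, 18.20 and 15.65. The next dense region of 3L to the left ended 2.90 Mb away, and the next to the right began 10.2 Mb away, with 100 and 448 peaks of smaller regions in between. This was thus the only dense region between 5766806 and 18859974 on 3L.

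The region with most peaks of all 90, on 3R from 12032115 to 12091995, was tall in several places. Its 31 scores ran from 10.09 over a median of 33.28 to 233.39, and 19 of its peaks reached 2-fold. The tallest was a 1161 bp peak from 12086222 to 12087382, the 28th from the left. This peak was off the constant background, at 4.57-fold over it or more. The next by score were a 4430 bp peak at 133.29 and a 4069 bp peak at 109.62 near the middle, and a 2685 bp peak at 91.58 that opened the region. On the same arm, the 25 peaks from 23754628 to 23784403 ran from 8.58 over 18.17 to 51.90, with 4 at 2-fold. The 24 peaks from 23077334 to 23119159 ran from 8.85 over 17.465 to 65.39, with 7 at 2-fold. Over the 90 regions the number of peaks and the median score had a Spearman rho of 0.32. More peaks thus went with a somewhat higher median score, but these last 2 regions had medians below the 18.67 of the median region.

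On 2L, the 20 peaks from 476650 to 507493 had scores from 12.29 over a median of 30.255 to 144.90, with 11 at 2-fold, and the 3 tallest were neighbours near the left end (144.90, 114.84 and 88.20). The 16 peaks from 13384761 to 13399573 ran from 10.31 over 18.66 to 62.07, with 1 at 2-fold. On 2R, the 20 peaks from 7078388 to 7100868 ran from 7.51 over 18.995 to 89.19 and the 20 peaks from 3402040 to 3427816 from 9.02 over 14.57 to 70.48, each with 5 at 2-fold. The 15 peaks of 2R from 10368716 to 10383790 ran from 9.89 over 19.46 to 61.82, with 4 at 2-fold. On 3L, the 22 peaks from 3422721 to 3461717 ran from 7.26 over 29.175 to 60.46, with 12 at 2-fold and a median width of 1272 bp, the widest of the 90 regions. The 19 peaks of 3L from 626753 to 656222 ran from 11.74 over 31.66 to 108.27, with 10 at 2-fold. The 3 regions with most peaks on 3L thus all had medians above 29, and those of 2R all had medians below 20.

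Other tall single peaks lay in short regions. On 2L, the 10-peak region from 13504331 to 13518975 had a 3342 bp peak at 148.97, 3.70-fold over background (counting interval 3.41 to 4.01), with a next score of 39.85. The 13-peak region of 2L from 11986882 to 12013852 reached 142.19 and 102.68. On 3R, the 11-peak region from 19129952 to 19143727 reached 134.16, with a next score of 43.25. In 15 of the 90 regions the tallest peak reached 3-fold.

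The tallest peak had no fixed place in its region. Counted from the lower coordinate, with a region cut into 3 equal parts, it lay in the left part of 21 regions, the middle part of 32 and the right part of 37. It was the widest peak in 41 regions, and it was the first or last peak in 11. The peaks at both ends were lower than those inside. The 180 first and last peaks had a median score of 15.565 and a median width of 524 bp. The second peaks from either end had 18.865 and 683 bp, and the 494 peaks farther in than the fourth had 19.48 and 641.5 bp. The profile was not smooth, since the fourth peaks from either end had a median score of 17.005 and a median width of 490.5 bp.

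Peaks in dense regions often lay over a raised background. A score that falls more than 0.01 from the constant-background values was taken to rest on a higher local background, for which MACS looks around each peak. This held for 627 of the 1214 peaks (51.6%, exact binomial interval 48.8 to 54.5%), against 28.2% of all peaks in the list. By size of region, the share was 18.9% for single autosomal peaks, 23.4% in regions of 2 to 4 and 34.2% in regions of 5 to 9. Around the limit of the rule it was not steady. Regions of 8 peaks had 40.1%, those of 9 had 39.5%, those of 10 had 28.2% and those of 11 had 62.2%. The fold recovered for such peaks is the least they can have reached against the constant background, and the most against their own. Among peaks on the constant background alone, those in dense regions were still taller and wider, with a median score of 17.92 and a median width of 592 bp over 587 peaks, against 15.01 and 477 bp over 6931 autosomal peaks of smaller regions. Of these 587, 22.3% reached 2-fold, against 17.1% of the 6931. The sources used here do not say which libraries gave the local background, and the part of DNA copy number and of neighbouring peaks in it was not tested.

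Many regions had either a small or a large part of their peaks over a raised background. In 35 regions at most 25% of the peaks were off the constant background, in 34 it was at least 75%, and 21 lay between. Of the first set, 3R had 22 regions, 2R had 8, 3L had 3 and 2L had 2. Of the second, 2L had 13, 3L had 11, 2R had 6 and 3R had 4. The peaks of dense regions were off the constant background in 75.2% of cases on 2L, 70.1% on 3L, 47.7% on 2R and 30.0% on 3R, against 44.6%, 27.4%, 21.2% and 17.5% of the other peaks of these arms. The median over regions of the median score was 17.315 in the first set and 18.97 in the second, and over all 90 regions the share off the constant background and the median score had a Spearman rho of 0.31. Their median lengths were 13546 and 17439.5 bp. On 3R, the regions with 25 and 24 peaks illustrate the contrast: 3 of 25 peaks were off the constant background from 23754628 to 23784403 and 22 of 24 from 23077334 to 23119159, while the median scores were 18.17 and 17.465. Every peak lay on the constant background in 4 regions, all on 3R, and every peak lay off it in 5, of which 3 were on 2L.

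**Figure D4:**
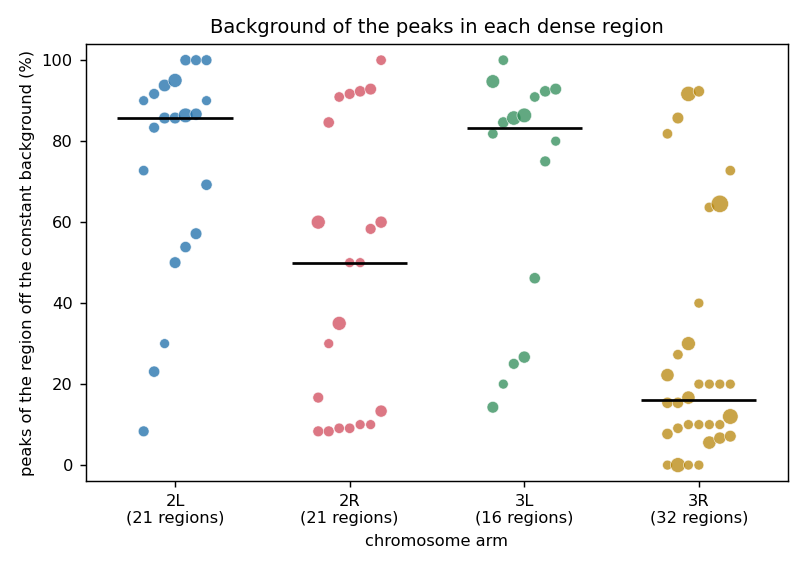
Each circle is 1 dense region, sized by its number of peaks, at the percentage of its peaks whose score lay off the constant background (y axis) on each arm (x axis), and black lines are medians over regions. Medians are 85.7% on 2L, 50% on 2R, 83.2% on 3L and 16.0% on 3R, and every arm has regions below 15% and above 90%.

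Some dense regions lay close together, and most did not. The median distance between neighbouring dense regions was 528 kb (quartiles 165 and 1071 kb), from 1.05 kb to 10.2 Mb. In 14 of 86 cases the next region began within 50 kb, which put 25 regions into 11 groups and left the others alone. On 2L, 3 regions with 46 peaks lay within 86.2 kb from 476650 to 562825, and a further 3 with 37 peaks within 82.4 kb from 10965967 to 11048321. On 3R, 3 regions with 31 peaks lay within 90.5 kb from 25602952 to 25693423. The closest neighbours missed the joining limit by little. On 3L, the regions from 1531628 to 1544297 and from 1545349 to 1562042 were 1051 bp apart, and would form a run of 25 peaks. Also on 3L, the region ending at 3421402 (13 peaks, highest score 133.69) and that starting at 3422721 were 1318 bp apart and together had 35 peaks over 58.8 kb, close to the longest run on 3R. The 3L regions from 19892491 to 19906672 and from 19907991 to 19922365 were 1318 bp apart too, but only 2 of their 27 peaks had a recovered fold of 2 or more.

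The largest distance between neighbouring dense regions, 10.2 Mb, lay on 3L between 8703135 and 18859974 and held 448 peaks of smaller regions. That of 9.60 Mb on 2L, between 1132878 and 10729280, held 458. The next largest, on 3R between 1395656 and 4626797, was 3.23 Mb. On the nearer side of a dense region, the next peak outside lay at a median of 1564.5 bp from the region's edge (at least 1001 bp by the rule, 1005 bp as observed), within 2000 bp for 61 of the 90 regions and more than 5000 bp away for 14. Over both sides the median was 2750 bp (quartiles 1411 and 9797 bp).

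The X chromosome, joined by the same rule, had 31 dense regions with 374 peaks, 14.3% of its 2617 peaks. At 14.0 regions per 10 Mb it had more of them than the autosomal arms (9.35), but they were shorter, with a median length of 12320 bp and at most 20 peaks. Their median score was 15.36 and 17.1% of their peaks reached 2-fold, close to the 15.24 and 18.3% of the other X peaks. Their share off the constant background was 20.1% (exact binomial interval 16.1 to 24.5%), against 19.9% of the other X peaks. In median score and in background, dense regions and other peaks thus lay closer together on X than on any of the 4 autosomal arms. In the share at 2-fold this did not hold for 2R (19.3% and 18.3%). The median width on X was 514.5 bp in dense regions and 474 bp elsewhere. The difference between X and the autosomes was not tested.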

How the data were processed

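The authors deposited 1 peak list for the whole series, called with MACS on FlyBase release 5, per the file headers. BWA, CASAVA (1.7.0.3 and 1.7.0.2), MACS2 and BDGP5 appear without roles in the submitters' processing notes. The sources used here do not give the threshold, whether the input was used or whether the 3 ChIP libraries were pooled. The unnamed deposited score was taken for a −log10 p-value of the authors, since its values follow a Poisson ladder (1 score for each whole number of fragments). A grid search with a spacing of 0.001 chose the constant background under which the most peaks (9376) fell within 0.006 of a ladder value, which was 157.836 fragments. The 9749 peaks within 0.01 of the ladder were counted as on the constant background, and fold is the matching fragment count divided by 157.836. Off the ladder, the next step up was used. Fold intervals are exact 95% Poisson intervals, given only for a peak on the ladder. Intervals of shares are exact binomial (Clopper-Pearson).

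Python 3.11.15, numpy 2.4.6, pandas 2.3.3, scipy 1.17.1 and matplotlib 3.10.9 were used, and the fit and the joining were tested on simulated data. The regions, settings and named items were chosen with earlier results of these data known. Named were the 3 regions with most peaks per arm, the 8 with the highest score, the 4 longest, the 4 highest and 4 lowest by covered share and by ratio of highest to median score, the 3 closest pairs, the 5 highest peaks and the 3 widest. Other regions, the groups within 50 kb and the limits of 25% and 75% were chosen after values were seen. A gene table on release 6 was not used for positions, so no peak was assigned to a gene and no sequence is shown.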

Additional observations from a re-analysis of the deposited data

How the results depend on the processing

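How many regions count as dense depended on the rule. The 90 regions and 1214 peaks became 10 and 114 with a joining gap of 500 bp, 199 and 3093 with 2000 bp, and 186 and 2029 with at least 8 peaks; with at least 12 peaks there were 55 regions. Joining only the 50% of all peaks with the highest score left 7 regions with 98 peaks. The median covered share was 86.3% at 500 bp, 63.7% at 2000 bp, 77.7% with at least 12 peaks and 81.8% in the upper 50% by score. The median score was 22.43 at 500 bp, 16.92 at 2000 bp and 34.215 in the upper 50%. The median width was 747 bp, 564 bp and 1043 bp in the same order, and 656 bp with at least 12 peaks. The median gap was 196.5, 325.5 and 286 bp. The share at 2-fold or more was 39.5%, 21.5% and 63.3%, and 29.0% with at least 12 peaks. The share off the constant background was 44.0% at 2000 bp, 46.9% with at least 8 peaks, 55.9% with at least 12, 82.7% in the upper 50%, and 54.8% and 46.5% with ladder tolerances of 0.006 and 0.02. The upper 50% selects taller peaks by construction. The medians of score and width were also higher with a tighter gap and with a higher minimum. Neither setting uses the score, but both act on peak positions and widths, which come from the same signal. With at least 12 peaks the median score was 19.46, at the edge of the interval of the reported value (17.82 to 19.46). In 14 of 47 recomputed values the change stayed within the interval of the reported value, or within 1.5 times for a count, among them the place of the tallest peak under all 5 settings tried. No paired analysis was possible because single libraries have no values in the list, so none could be left out either. With the depth unknown, how many weak peaks were missed could not be assessed.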
